A study of Mus musculus with 25 samples.

Results

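The genes of the citric acid cycle were examined in the gastrocnemius muscle of 25 male mice of SAMP8, a strain that ages early. Members were 9 genes that encode mitochondrial enzymes of the cycle, Cs, Idh2, Idh3a, Idh3b, Idh3g, Ogdh, Suclg1, Fh1 and Mdh2, chosen by name, and all 9 were among the 8829 genes of the deposited table. Mice were 8 months old at the start and received either vehicle (corn oil; Control, n = 11 mice) or 20 mg thymol per kg body weight per day, dissolved in corn oil and given by gavage on 5 days of each week (Thymol, n = 14 mice), for 3 months. Thymol is a terpenoid of thyme and oregano oils. The samples analysed here hold no strain of normal ageing and no young mice, and both groups share the SAMP8 background and age. Each mouse gave 1 library.

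The citric acid cycle oxidizes the acetyl group of acetyl-CoA in the mitochondrial matrix and passes the electrons, as NADH and reduced flavin, to the respiratory chain. Its enzymes are encoded in the nucleus and imported into mitochondria, and muscle fibres that rely on oxidative metabolism, the slow fibres and the oxidative fast fibres, hold more of them than glycolytic fibres. Citrate synthase activity is widely used as a measure of mitochondrial content in muscle. The cycle holds an NAD-dependent isocitrate dehydrogenase, built from the products of Idh3a, Idh3b and Idh3g, while Idh2 encodes a separate, NADP-dependent isocitrate dehydrogenase of the same compartment that supplies NADPH.

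Libraries were made with QuantSeq, which reads 3′ ends of polyadenylated RNA, so that a gene's read number does not grow with transcript length. Values are log2 CPM, the log2 of read counts scaled to a common library size (CPM), with the TMM factors that the authors set. Depth ranged from 4463818 to 9463418 reads per mouse, and each member had between 455 and 7753 reads in every library, so that counting error was far below the spread between mice. Fast fibre genes were the most abundant of the marker lists, led by Myh4 at a mean of 15.04 log2 CPM, and slow fibre genes were led by Myl3 at 9.24 log2 CPM, as gastrocnemius is a mostly fast muscle. In bulk tissue, fewer fibres or cells of a type and less RNA per cell cannot be told apart. Marker RNA of other cells differed between libraries. Control 19 held the highest summed level of 8 adipocyte genes, 2526 CPM, within a range of 304.6 to 2526 CPM in Control and 320.1 to 2273 CPM in Thymol. Control 18 held the highest summed level of 8 leukocyte genes, 473.2 CPM, within 98.25 to 473.2 CPM in Control and 107.3 to 333.0 CPM in Thymol. Some results that rest on these libraries are also given without them. Mice are named by group and the last number of their label.

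The members' start regions show where these genes differ in sequence. RefSeq windows on GRCm38.p6, from 250 bases before to 50 bases after the annotated start, were present for 8 of the 9 members (Idh3a has no entry), and 4 of them are printed because their genes carry the co-variation described further on. Cs and Mdh2 were among the most closely linked pairs, Idh3b followed the respiratory chain genes most closely, and Idh2 was the least related to the other members. The windows are chr10:128337477-128337776 on the plus strand for Cs, chr5:135778399-135778698 on the plus strand for Mdh2, chr2:130284402-130284701 on the minus strand for Idh3b and chr7:80115301-80115600 on the minus strand for Idh2, each written 5′ to 3′ on the strand of its gene. Capitals mark matches, on either strand, to any of 4 words searched.
Cs: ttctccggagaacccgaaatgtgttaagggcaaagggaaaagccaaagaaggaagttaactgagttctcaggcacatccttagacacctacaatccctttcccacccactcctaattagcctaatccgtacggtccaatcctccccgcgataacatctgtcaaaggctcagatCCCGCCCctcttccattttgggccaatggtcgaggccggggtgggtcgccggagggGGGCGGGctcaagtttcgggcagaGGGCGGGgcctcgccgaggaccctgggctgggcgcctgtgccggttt
Mdh2: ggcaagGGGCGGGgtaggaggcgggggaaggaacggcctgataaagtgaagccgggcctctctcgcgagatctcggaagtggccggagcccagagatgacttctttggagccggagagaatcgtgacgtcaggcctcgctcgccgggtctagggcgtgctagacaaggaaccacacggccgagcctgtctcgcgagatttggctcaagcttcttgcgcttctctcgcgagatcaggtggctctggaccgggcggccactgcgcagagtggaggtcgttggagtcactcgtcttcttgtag
Idh3b: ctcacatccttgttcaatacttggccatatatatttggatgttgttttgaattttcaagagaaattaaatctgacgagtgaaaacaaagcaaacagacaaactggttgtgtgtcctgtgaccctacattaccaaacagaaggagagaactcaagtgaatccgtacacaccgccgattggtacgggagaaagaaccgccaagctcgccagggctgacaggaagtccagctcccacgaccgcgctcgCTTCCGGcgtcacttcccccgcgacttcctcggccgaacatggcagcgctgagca
Idh2: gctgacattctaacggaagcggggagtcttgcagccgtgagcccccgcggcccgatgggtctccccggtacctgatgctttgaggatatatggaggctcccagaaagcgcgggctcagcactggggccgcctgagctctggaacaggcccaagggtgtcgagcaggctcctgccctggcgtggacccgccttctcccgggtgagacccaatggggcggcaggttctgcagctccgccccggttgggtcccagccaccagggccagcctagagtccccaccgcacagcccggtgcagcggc
The words were AAGGTCA (the core site of the estrogen-related receptors), GCGC and TGCGC with any base between them (NRF1), CCGGAAG (the ETS family, which includes GABP) and GGGCGGG (the GC box of Sp factors).

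Matches were few and were common in other windows too. The GC box word was found in the windows of Cs, Ogdh, Fh1 and Mdh2, 4 of 8 members, against 47.7% of the 9105 windows of genes in the table and 25.6% of all 32851 windows. A member was counted if any of its windows matched, whereas these shares are of single windows. Ogdh had the word in only some of its 6 windows. Cs had 3 matches, which began 77 and 21 bases before and 3 bases after the start. The ETS word was found in Idh3b, 5 bases before the start, and in Idh3g, 104 bases before it, which is 2 of 8 members against 18.2% of windows of table genes. AAGGTCA was found only in Ogdh among the 8 members, in 1 of its 6 windows, against 2.94% of windows of table genes, and the NRF1 word in none of the 8, against 10.7%. The Idh2 window held none of the 4 words. A match in these letters is a description of the sequence and not a measured binding site.

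All 9 members were abundant, between the 91st and the 99th percentile of the table. Mdh2, the mitochondrial malate dehydrogenase that regenerates oxaloacetate, had the highest mean at 837 CPM, followed by Cs (320.6 CPM), Ogdh (309.9 CPM), Idh3a (285.5 CPM), Suclg1 (276.3 CPM), Idh3b (219.7 CPM), Idh2 (193.4 CPM), Idh3g (170.7 CPM) and Fh1 (115.6 CPM). On the log2 scale, within-mouse differences set this order apart at 3 steps only, in each of which all 25 mice had the same order. Mdh2 exceeded Cs by 1.39 ± 0.10 (SD, n = 25 mice), Suclg1 exceeded Idh3b by 0.33 ± 0.14 and Idh3g exceeded Fh1 by 0.56 ± 0.18. The neighbours Cs and Ogdh (0.052 ± 0.19, Cs higher in 18 mice), Ogdh and Idh3a (0.12 ± 0.22, 15 mice) and Idh3a and Suclg1 (0.042 ± 0.12, 17 mice) differed by less than the spread of their difference between mice. The same held for Idh3b and Idh2 (0.28 ± 0.50, 17 mice) and for Idh2 and Idh3g (0.087 ± 0.51, 11 mice). The sum over the 9 genes came to 2714.5 ± 262.5 CPM over the 11 Control mice (SD) and to 2739.6 ± 273.5 CPM over the 14 Thymol mice (SD).

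**Figure D1:**
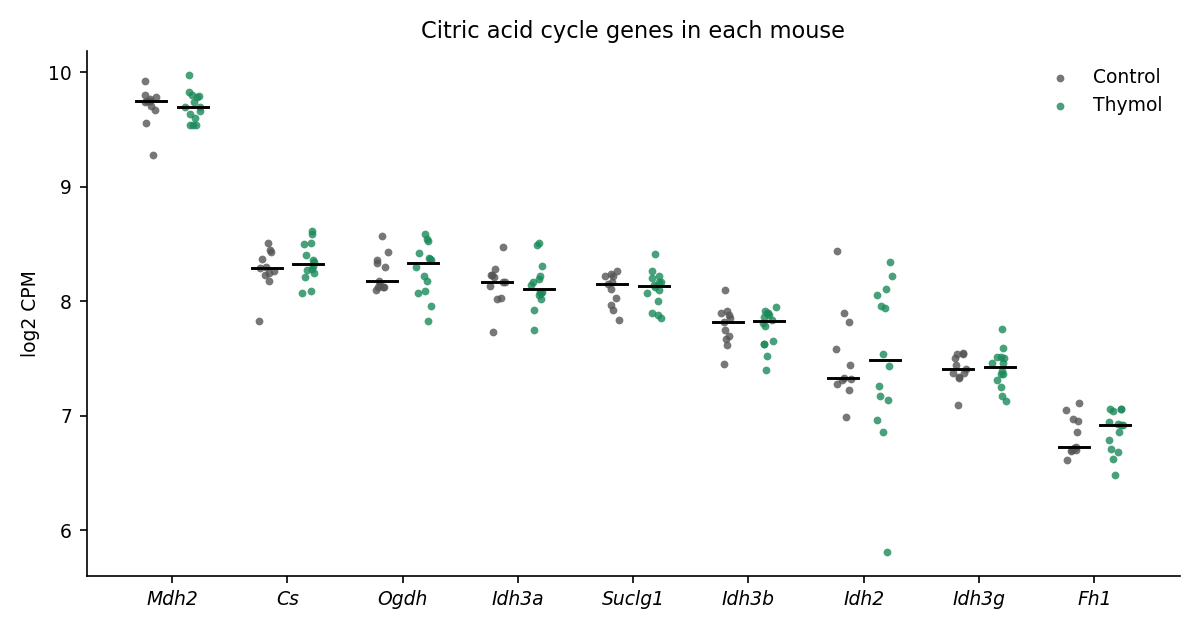
Level of each citric acid cycle gene in each mouse, in log2 CPM, with Control in grey and Thymol in green and a black line at the group median. The groups overlap for all 9 genes, and Idh2 spreads over the widest range, from 5.81 to 8.44.

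Thymol against Control asked whether the treatment moved these transcripts. It did not do so detectably. Of the 9 members, 0 had an adjusted p under 0.05 (limma, Benjamini-Hochberg over 8829 genes; 0% of all genes were called, smallest adjusted p of any gene 0.741), and 0 of 9 had an unadjusted p under 0.05, against 3.53% of all genes, 1.83% higher and 1.7% lower. The fold change was above 0 for 6 members and below 0 for 3, while 49.6% of all genes were above 0. Its median over the members was 0.0032 on the log2 scale and -0.001 over all genes. The largest member difference, that of Cs at 0.061, was exceeded in size by 53.8% of all genes. It depended on Control 19, without which Cs was at 0.0161 and Idh3b at -0.0598, and Idh2 was at 0.103 without Thymol 20. limma-voom on the recovered reads also gave 0 members with an adjusted or an unadjusted p under 0.05. Adjusted p was 0.9999 for every member. The p of each member below is the unadjusted p of the same limma fit.

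Cs encodes citrate synthase, which joins acetyl-CoA and oxaloacetate in the first step of the cycle. Its lowest, median and highest levels were 7.83, 8.29 and 8.51 log2 CPM in Control and 8.07, 8.33 and 8.61 in Thymol. The ranges overlapped, with 8 of 14 Thymol mice above the Control median. Means were 8.28 ± 0.18 (SD) for the 11 Control mice and 8.34 ± 0.17 (SD) for the 14 Thymol mice, a log2 fold change of 0.061 with a 95% interval of -0.078 to 0.20 (p = 0.375), which is 0.948 to 1.15 times the Control level. Control 19 was the lowest of all mice. Cs lies at chr10:128337734-128362479 (GRCm38, plus strand).

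The products of 3 genes make up the NAD-dependent isocitrate dehydrogenase, which oxidizes isocitrate to α-ketoglutarate and yields NADH. Idh3a, its catalytic α subunit, ranged over 7.73, 8.17 and 8.47 log2 CPM (lowest, median, highest) in Control and 7.76, 8.11 and 8.51 in Thymol. Idh3b, the β subunit, ranged over 7.45, 7.82 and 8.10 in Control and 7.40, 7.82 and 7.95 in Thymol. The γ subunit gene Idh3g ranged over 7.09, 7.41 and 7.55 in Control and 7.14, 7.42 and 7.76 in Thymol. For all 3 genes the ranges of the groups nearly coincided. The log2 fold changes were -0.0092 for Idh3a (95% interval -0.16 to 0.14, p = 0.904), -0.027 for Idh3b (-0.16 to 0.11, p = 0.695) and 0.0056 for Idh3g (-0.12 to 0.13, p = 0.929). Reads of the subunits stood in the order α, β, γ in each of the 25 mice. The log2 ratio of Idh3a to Idh3b was 0.37 ± 0.13 in Control and 0.38 ± 0.21 in Thymol, and that of Idh3b to Idh3g was 0.38 ± 0.15 and 0.35 ± 0.17. The annotated Idh3b (chr2:130279309-130284547, GRCm38, minus strand) overlaps Nop56 on the other strand.

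Idh2, the NADP-dependent mitochondrial isocitrate dehydrogenase, varied far more than any other member. Its lowest, median and highest levels were 6.99, 7.33 and 8.44 log2 CPM in Control and 5.81, 7.48 and 8.34 in Thymol. Thymol 20 stood well below every other mouse, the next of which was Thymol 21 at 6.86, and Control 14 was the highest. The SD between mice within groups was 0.58 on the log2 scale, of which 0.041 is the size that counting error alone would give, and it was larger than that of 97.6% of the 500 genes nearest in level. Without Thymol 20 the SD was 0.47. The other 8 members had SDs of 0.15 to 0.20 and stood between 36.8% and 71.8% among genes of like level. The log2 fold change of Idh2 was -0.026 with a 95% interval of -0.45 to 0.40 (p = 0.901), so that only differences beyond 0.731 to 1.32 times the Control level lie outside the interval. Its sign turned without Thymol 20 (0.10). Relative to Idh3a, the log2 ratio ran from -2.41 in Thymol 20 to 0.32 in Thymol 30, with Idh2 above Idh3a in 4 of 25 mice. Idh2 lies at chr7:80094846-80115392 (GRCm38, minus strand).

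Ogdh encodes the decarboxylating subunit of the α-ketoglutarate dehydrogenase complex. Its levels were 8.10, 8.18 and 8.57 log2 CPM in Control and 7.83, 8.33 and 8.59 in Thymol. The Thymol mice reached both lower and higher than Control, and 9 of 14 exceeded the Control median. The log2 fold change was 0.022 (95% interval -0.13 to 0.18, p = 0.772). Suclg1 encodes the α subunit of succinyl-CoA ligase, which makes a nucleoside triphosphate at the substrate level. It ranged over 7.84, 8.15 and 8.26 in Control and 7.85, 8.13 and 8.41 in Thymol, again with overlap, and its log2 fold change was 0.0031 (-0.12 to 0.13, p = 0.959).

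Fh1, fumarate hydratase, was the least abundant member, with 6.61, 6.73 and 7.11 log2 CPM in Control and 6.48, 6.92 and 7.06 in Thymol. Although 10 of 14 Thymol mice were above the Control median, the ranges overlapped, and the log2 fold change was 0.036 (95% interval -0.11 to 0.18, p = 0.612). The annotated Fh1 (chr1:175600374-175625635, GRCm38, minus strand) overlaps Kmo on the other strand. Mdh2 ranged over 9.28, 9.75 and 9.92 in Control and 9.54, 9.70 and 9.98 in Thymol. Control 19 was the lowest mouse and Thymol 24 the highest. Its log2 fold change of 0.00081 was the smallest of the members (-0.12 to 0.12, p = 0.989). In the last 500 bases of its transcripts, 0.767% of the 31-base words also occur in other annotated genes, the most in Gm12369, and for the other 8 members 0%.

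**Figure D2:**
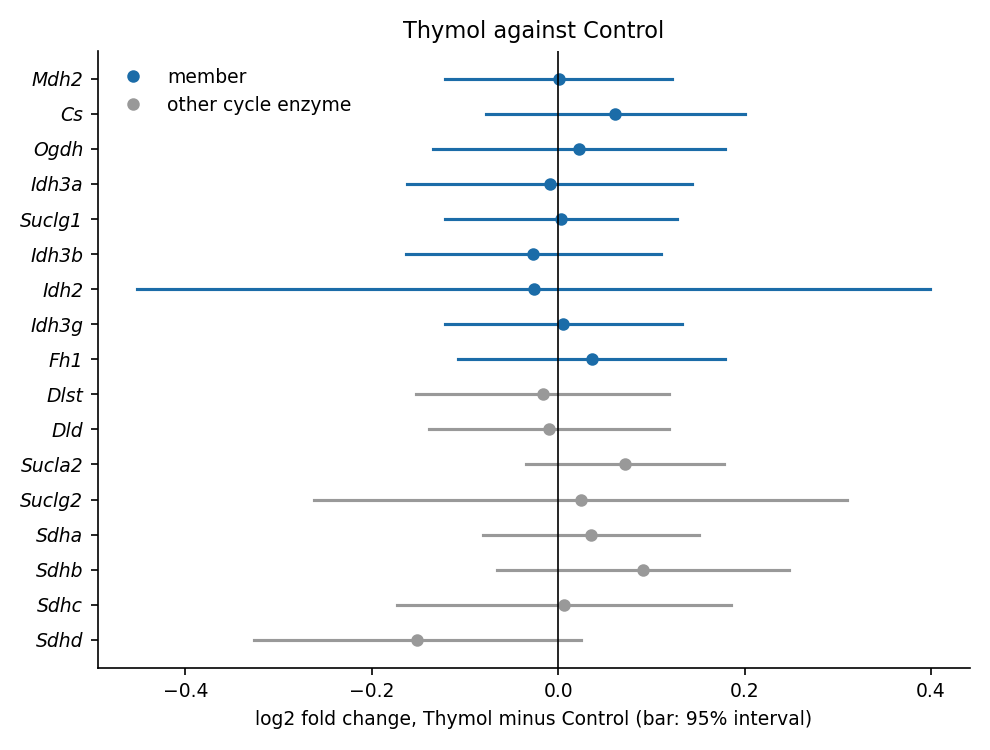
Log2 fold change of Thymol minus Control with its 95% interval (bars) for the 9 members in blue and 8 other cycle enzymes of the table in grey. Every interval includes 0, and that of Idh2, from -0.45 to 0.40, is the widest.

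The remaining enzymes of the cycle gave the same picture. Of 11 symbols listed, 9 were in the table, with 5 above 0 and 4 below, none with an unadjusted p under 0.05 in the limma fit, and a median log2 fold change of 0.006. Among them were Dlst and Dld (further subunits of the α-ketoglutarate dehydrogenase complex, -0.017 and -0.0097), Sucla2 and Suclg2 (ATP- and GTP-forming β subunits of succinyl-CoA ligase, 0.072 and 0.024), and the succinate dehydrogenase subunits Sdha (0.035), Sdhb (0.091), Sdhc (0.0063) and Sdhd (-0.15, p = 0.0887). The 4 cytosolic counterparts were all above 0, none with p under 0.05: Aco1 at 0.36 (p = 0.0716), Idh1 at 0.14, Mdh1 at 0.074 and Acly, which splits exported citrate, at 0.073. Of the 12 genes in the table that feed or drain the cycle, 10 were above 0, and the mitochondrial malic enzyme gene Me3 had an unadjusted p under 0.05 (0.16, p = 0.0453). Of 4 carrier genes, 3 were above 0 and 0 had p under 0.05. Among 10 regulators of mitochondrial genes, 5 were above 0, and Ppard, a lipid-sensing nuclear receptor, had an unadjusted p under 0.05 (-0.23, p = 0.0214), while Tfam, which maintains mitochondrial DNA, was at 0.13 (p = 0.076). The 15 nuclear respiratory chain genes had 8 above and 7 below 0, with a median of 0.001. None of these genes had an adjusted p under 0.05. Over all 8829 genes, 49.6% were above 0 and 3.53% had an unadjusted p under 0.05 in the same limma fit.

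Marker lists of fibre and cell types were set beside these values. Of 9 slow fibre genes, 8 were below 0, with a median log2 fold change of -0.24 and 0 with p under 0.05, but without Thymol 20 the median was 0.13. Their summed level ran from 942.3 to 7936 CPM in Control and from 97.03 to 10080 CPM in Thymol. Of 11 fast fibre genes, 5 were above 0 (median -0.004), and Myh2, the myosin of oxidative fast fibres, was at -0.0031 (p = 0.988). Counts above 0 were 5 of 8 for adipocyte, 4 of 8 for leukocyte, 1 of 6 for endothelial, 1 of 6 for fibroblast, 0 of 5 for nerve and 0 of 5 for red blood cell genes. Of these lists, only slow fibre, fast fibre, adipocyte and leukocyte were related to the members across mice, as given below. The endothelial, fibroblast, nerve and red blood cell lists were not. The part of any list in the members' values was not tested.

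Across mice, the members rose and fell together. Levels were centred on the mean of each group, and 99 relations were tested, 36 between pairs of members and 63 between a member and 7 reference measures, with 100000 two-sided permutations within groups and Benjamini-Hochberg adjustment over the 99. Pearson's r was positive in 35 of 36 pairs, with a median of 0.543. It passed an adjusted p of 0.05 in 27 pairs, and Spearman's rho in 16, all of them among the 27. How many pairs of other genes would pass was not computed. The co-variation was not particular to the members. Genes outside them had a mean r with the 9 members of up to 0.68 (Slc25a3), with a median of -0.012 over 8820 genes. Of the 16 pairs, 9 also passed without the 2 mice farthest from the median, and of the 27 pairs 10 did so by Pearson's r. A good part of the relations may thus lean on few mice. Leaving out the farthest mice also narrows the range, which lowers r by itself, and these were not told apart. The median was that of the gene that comes first in the opening list of members. Mice far out in the other gene only were not left out. Without Control 18 and Control 19 the Pearson count was 17, without Control 19 alone 18, and without Thymol 21 the Spearman count was 7. With quantile normalization several of the 27 pairs no longer passed by Pearson's r, as listed in the last section.

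The mice at the ends were the same for many genes. Thymol 21 was among the lowest 3 mice for 8 members, Thymol 28 for 7 and Control 19 for 5, and Thymol 24 was among the highest 3 for 6. Control 19 was the lowest mouse for Cs (7.83), Idh3a (7.73), Idh3g (7.09) and Mdh2 (9.28). Thymol 24 was the highest for Idh3g (7.76), Suclg1 (8.41) and Mdh2 (9.98). These mice came from both groups.

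The closest relation was that of Cs with Idh3a, at r = 0.854 (permutation test, adjusted p = 0.000141, rho = 0.83, adjusted p = 0.00033), and it stayed at r = 0.761 without the 2 mice farthest from the median. Within Control alone r was 0.891 and within Thymol alone 0.83. Cs also followed Mdh2 (r = 0.82, rho = 0.755, r = 0.687 without the 2 farthest) and Suclg1 (r = 0.693, rho = 0.709, r = 0.68). Idh3a followed Suclg1 (r = 0.779, rho = 0.865, r = 0.772) and Mdh2 (r = 0.776, rho = 0.689, r = 0.654). In each of these relations both coefficients had an adjusted p of 0.00275 or less by permutation. Among all genes of the table, 99.6% had a lower r with Cs than Suclg1 had, and 99.9% a lower r with Idh3a than Mdh2 had. The raw permutation p of the closest relations was 1e-05, the smallest that 100000 permutations can give.

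The 3 subunit genes of the NAD-dependent isocitrate dehydrogenase were not the closest partners of each other. Idh3a and Idh3b had r = 0.5 (adjusted p = 0.0357 by permutation) but rho = 0.231 (adjusted p = 0.414), and r was 0.161 without Control 19 and Thymol 21. Idh3a and Idh3g had r = 0.515 and rho = 0.345 (adjusted p = 0.181), with r = 0.351 without the same mice. For Idh3b and Idh3g r was 0.506, rho 0.378 (adjusted p = 0.148) and r 0.357 without them. Without those 2 mice none of the 3 relations passed an adjusted p of 0.05, and that of Idh3a and Idh3b lost the most. With quantile normalization none of the 3 passed either, with r of 0.45, 0.48 and 0.482 in the same order. Idh3b was closer to Ogdh (r = 0.643, rho = 0.586, r = 0.567 without the 2 farthest), and this pair differed in size between the groups, with r = 0.276 in Control and 0.863 in Thymol, a difference that was not tested.

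**Figure D3:**
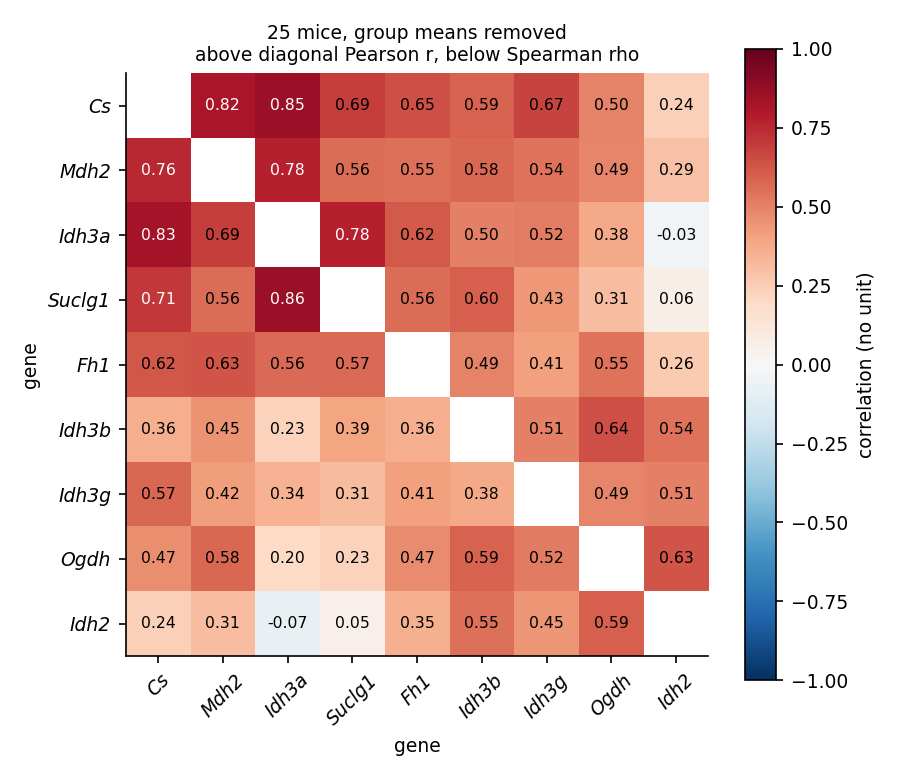
Correlation between each pair of members over 25 mice after removal of the group means, with Pearson's r above the diagonal and Spearman's rho below it (colour scale from -1 to 1, no unit). Cs, Mdh2, Idh3a and Suclg1 form the darkest corner, with r up to 0.854, and the Idh2 row and column are pale apart from Idh3b, Idh3g and Ogdh.

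Idh2 stood apart from this pattern. It passed an adjusted p of 0.05 by Pearson's r in 3 of its 8 pairs, against 24 of the 28 pairs without Idh2, whose median r was 0.552 and lowest r 0.311. Its r was 0.627 with Ogdh (adjusted p = 0.00913 by permutation, rho = 0.594), 0.542 with Idh3b and 0.506 with Idh3g, but -0.025 with Idh3a (adjusted p = 0.949), 0.057 with Suclg1 and 0.236 with Cs. The relation with Idh3g did not pass by rho (0.445, adjusted p = 0.085 by permutation). Without Thymol 20 and Control 14, neither Idh3b (r = 0.484, adjusted p = 0.0803 by permutation) nor Idh3g (r = 0.365, adjusted p = 0.236) passed. With quantile normalization of all mice, Idh3b (r = 0.464) and Idh3g (r = 0.482) did not pass with Idh2 either. Its mean r with the other 8 members was 0.312, and those of the other members lay between 0.498 (Ogdh and Suclg1) and 0.627 (Cs).

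Idh2 followed the slow fibre genes more closely than it followed any other member. It was closer still to Myh2 of oxidative fast fibres, as given below. With the mean of 9 slow fibre genes, among them Myh7, Myl3 and Tnnc1, it had r = 0.889 and rho = 0.775 (adjusted p = 0.000141 and 0.000495 by permutation), and r = 0.802 without Thymol 20 and Control 14. No other member passed an adjusted p of 0.05 with this score, with r from -0.30 (Idh3a) to 0.452 (Ogdh). Without Thymol 6, and likewise without Control 23, Ogdh became the second member to pass. With the fast fibre score, Idh2 had r = -0.443 (adjusted p = 0.0804) and rho = -0.52 (adjusted p = 0.0417).

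The 10 genes closest to Idh2 in the whole table, by Pearson's r over 25 mice and named after their values were seen, were Myh2 (0.958), Ldhb (0.949), Barx2 (0.907), Myoz2 (0.905), Lgi1 (0.899), Homer2 (0.895), Myl3 (0.895), Pdlim1 (0.895), Mavs (0.892) and Tnnc1 (0.887). Myh2 encodes the myosin heavy chain of oxidative fast fibres, Ldhb the lactate dehydrogenase subunit that prevails in oxidative muscle, Myoz2 a Z-disc protein of slow fibres and heart, and Myl3 and Tnnc1 slow contractile proteins. Without Thymol 20 their r stayed between 0.809 (Tnnc1) and 0.93 (Myh2). The lowest r were those of Drap1 (-0.784), Eif4e3 (-0.751), Jph2 (-0.723), Serinc2 (-0.723) and Ttc28 (-0.708).

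Myh2, taken because it had the highest r with Idh2 of all genes, was then set against each member as a description, with no test. Its levels were 9.93, 10.45 and 11.21 log2 CPM (lowest, median, highest) in Control and 8.69, 10.54 and 11.23 in Thymol, and the mouse at each end of Control, Control 23 and Control 14, was also at that end for Idh2. Thymol 20 was the lowest mouse for both genes, and in this mouse Myh7 was at 1.68 log2 CPM, against a Thymol median of 7.87. Idh2 and Myh2 had r = 0.958 and rho = 0.942 over 25 mice, and r = 0.926 without the 2 farthest mice. The r of Idh3g was 0.55, that of Ogdh 0.529 and that of Idh3b 0.495, and the other 5 members lay between -0.046 (Idh3a) and 0.223 (Mdh2). For the slow fibre score, whose genes were not chosen by their r with Idh2, the difference between members was tested by exchanging the standardized values of Idh2 and of another member within mice, with 100000 permutations, two-sided and adjusted over 8 comparisons. Idh2 had a higher r with the score than each of the other 8 members (adjusted p of 0.00317 or less by permutation). Idh2 was singled out after its r was seen, and the p does not allow for that choice. The comparison was not repeated without Thymol 20.

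**Figure D4:**
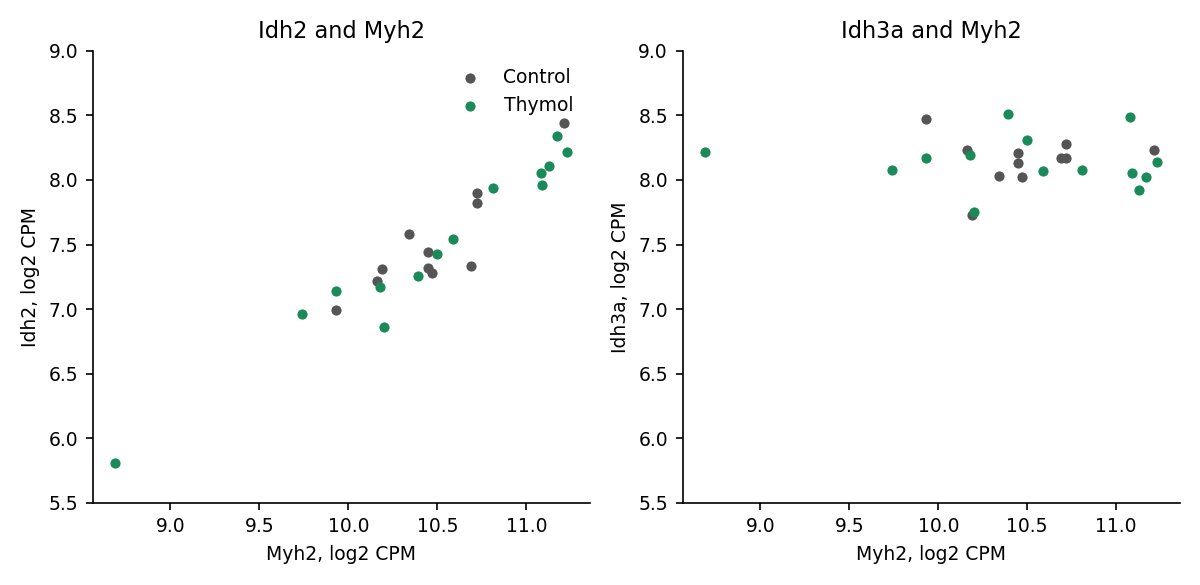
Idh2 (left) and Idh3a (right) against Myh2 in each mouse, all in log2 CPM, with Control in grey and Thymol in green. Idh2 rises with Myh2 over the whole range, from Thymol 20 at 5.81 to Control 14 at 8.44, whereas Idh3a stays between 7.73 and 8.51.

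The relations of Idh2 were also computed with the slow fibre score removed. When each gene's values were regressed on the score, all 8 pairs of Idh2 passed an adjusted p of 0.05 by Pearson's r (permutation), against 3 before, and 6 by Spearman's rho, the exceptions being Idh3a and Suclg1. Their median r rose from 0.274 to 0.581, and the 28 other pairs went from a median of 0.552 to 0.605. With Idh3a, r went from -0.025 to 0.554 (adjusted p = 0.015; rho = 0.443, adjusted p = 0.0715), and with Suclg1 from 0.057 to 0.565 (adjusted p = 0.0119; rho = 0.418, adjusted p = 0.0851). With Ogdh it went from 0.627 to 0.551. The change of r on removal of the score was not tested.

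**Figure D5:**
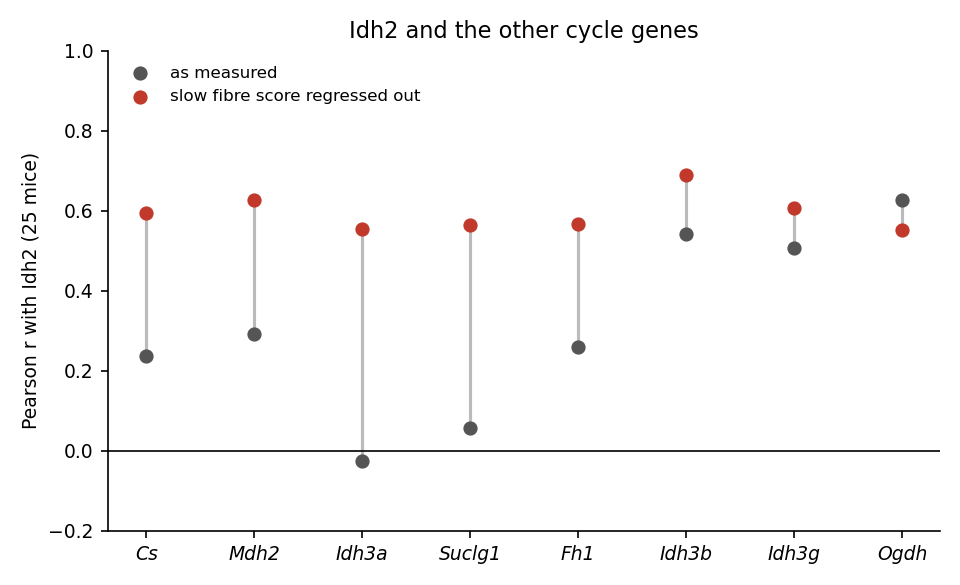
Pearson's r of Idh2 with each of the other 8 members over 25 mice, as measured (grey) and after the slow fibre score was regressed out (red). After regression the 8 values lie between 0.551 and 0.689, and before it between -0.025 and 0.627.

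Every member followed the mean of the 15 nuclear genes of the respiratory chain. The r ran from 0.534 (Idh2, adjusted p = 0.0216 by permutation) and 0.608 (Fh1) to 0.789 (Cs) and 0.891 (Idh3b, rho = 0.833), all 9 with an adjusted p under 0.05 by both coefficients. For Cs, Idh3b, Suclg1 and Mdh2 the relation also passed without the 2 farthest mice, with r of 0.671, 0.83, 0.721 and 0.614. For the other 5 members r without these mice was 0.43 to 0.536, and the adjusted p no longer passed. The genes most like the members, by mean r with all 9, were Slc25a3 (0.68), which imports phosphate, the respiratory chain genes Cox5a (0.675), Cyc1 (0.671), Uqcrc2 (0.669), Ndufs1 (0.648) and Ndufc2 (0.641), the ATP synthase genes Atp5f1b (0.657) and Atp5mc3 (0.647), and Tmem65 (0.658) and Scn4b (0.643), a sodium channel subunit. The median over 8820 genes was -0.012. The least like were Il1r1 (-0.558), Xpa (-0.533), Casp8ap2 (-0.514), Ubn2 (-0.509) and Fkbp9 (-0.506).

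RNA of other cells moved with some members. Idh3b was negatively related to the adipocyte score (r = -0.555, adjusted p = 0.0181, rho = -0.526) and the leukocyte score (r = -0.568, adjusted p = 0.0173, rho = -0.578), and Suclg1 to the leukocyte score (r = -0.591, adjusted p = 0.00976, rho = -0.593), all by permutation. Without the 2 mice farthest in the member's own level, only Idh3b with the leukocyte score still passed (r = -0.594, adjusted p = 0.0262 by permutation). Those mice were Thymol 21 and Control 19. Control 18, highest in leukocyte RNA, stayed in, and this relation is not given without it. Idh3b with the adipocyte score (r = -0.435, adjusted p = 0.128) did not pass. Neither did Suclg1 with the leukocyte score without Control 18 and Thymol 28 (r = -0.42, adjusted p = 0.152). Idh3b also followed the RNA of the mitochondrial genome (r = 0.527, adjusted p = 0.0256 by permutation, rho = 0.585), but without the 2 farthest mice this relation did not pass (r = 0.347, adjusted p = 0.246). No other member passed. The share of reads from the mitochondrial genome ran from 22.003% to 33.901%. Depth was related to no member at an adjusted p of 0.05, with r from -0.156 (Mdh2) to 0.0838 (Fh1).

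Partners within the cycle were compared in 8 relations chosen after values were seen, with p adjusted over these 8, of which 7 are given. The adjustment does not cover that choice, so the values of r and p in this paragraph are a description only. Suclg1 shares its enzyme with either of 2 β subunits. It followed the ATP-forming Sucla2 (r = 0.677, adjusted p = 0.00156 by permutation), which lay 0.24 ± 0.12 below it. The GTP-forming Suclg2 was lower than Suclg1 by 5.02 ± 0.31 in the mean over 25 mice, and its relation to Suclg1 did not pass (r = 0.418, adjusted p = 0.0588). Ogdh followed Dlst (r = 0.51, adjusted p = 0.0168 by permutation) and not detectably Dld (r = 0.312, adjusted p = 0.118), a subunit that other complexes share. Mdh2 exceeded the cytosolic Mdh1 by 1.58 ± 0.21 and followed it (r = 0.557, adjusted p = 0.0168 by permutation, r = 0.393 without the 2 farthest mice). Fh1 followed Sdha by Pearson's r (0.472, adjusted p = 0.0353 by permutation), but not by rho (0.41, adjusted p = 0.0765). Idh2 exceeded the cytosolic Idh1 by 3.37 ± 0.66 in all 25 mice, and the 2 were not detectably related (r = -0.033, adjusted p = 0.882).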

How the data were processed

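Gastrocnemius RNA of 11 Control and 14 Thymol mice was sequenced with QuantSeq. According to the methods and the submitters' processing notes, reads were mapped to GRCm38 with STAR 2.5.3 and counted with HTSeq 0.6.1, genes with 30 reads in at least 6 samples were kept, and TMM scaling was applied. The authors deposited log2 CPM values, with 2 reads added before the log2. Of 220725 values, 100.0% were recovered as whole reads (tolerance 0.1 read), which gave depth and counting error. Amplified reads without molecular identifiers are not independent molecules, so this error covers counting only.

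Groups follow the treatment named in the titles. Because the unit is log2 CPM, limma 3.58.1 (R 4.3.3; linear model for treatment, mean-variance trend, two-sided, Benjamini-Hochberg over 8829 genes) was used in place of a count test. Correlations used numpy 2.4.6 and scipy 1.17.1, with values centred within groups. A list's score was the mean of its genes' centred log2 values, and for the mitochondrial genome the log2 of summed CPM. Scripts were tested on simulated data. Positions are from GENCODE on GRCm38, and promoter windows from RefSeq on GRCm38.p6. No protein sequence was used here.

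The members, gene lists and tests were chosen with earlier results of these data known. Named genes were the members, the other cycle enzymes, in each list the gene of smallest p on either side of 0, and the 10 highest and 5 lowest genes by mean r with the members. Not all are printed, some genes are not reported here, and genes beyond this rule are said to have been picked once their values were known. Alternatives were other scalings, added reads, filters, weights and covariates, limma-voom on recovered reads, a block for the first label number, and each mouse left out. The meaning of the first label number is not stated. Between groups, the mean correlation of the deviations was -0.002 for 9 pairs of mice with the same number and 0.0 for 145 other pairs. Mice of the same group that share a number were not compared, so whether the number groups the mice was not settled.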

Additional observations from a re-analysis of the deposited data

How the results depend on the processing

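No setting gave a member an adjusted p under 0.05 in limma (smallest 0.997, smallest unadjusted p 0.158), so the sign of a member's log2 fold change near 0 says little. The first label number, whose meaning is not stated, was used as a replicate block. In that fit only mice whose number occurs in both groups inform the fold change. Thymol 20 and Thymol 21 each have a number of their own and do not. The fold changes were then 0.251 for Idh2, 0.0164 for Idh3a, 0.0809 for Idh3b, 0.00439 for Dld and 0.269 for Myh2. Each was of opposite sign to the fit without the block, which draws on all mice. The block gave 1 gene of the related lists with an unadjusted p under 0.05 in place of 3 and changed no other call. Sample weights gave 0.059 for Idh2, -0.00438 for Suclg1, -0.00205 for Mdh2 and 0.0543 for Myh2. The slow fibre score as covariate gave 0.0536 for Idh2, -0.00194 for Suclg1 and 0.0751 for Myh2. Without Control 18 and Control 19 the values were -0.0287 for Idh3g, -0.0402 for Suclg1, -0.0412 for Mdh2 and -0.0206 for Sdhc, and 17 pairs of members passed by Pearson's r in place of 27. Quantile normalization gave -0.0149 for Mdh2 and r = -0.0549 for Idh2 and Suclg1. With it, the pairs among Idh3a, Idh3b and Idh3g no longer passed by Pearson's r. Neither did those of Idh2 with Idh3b and Idh3g. The same held for Cs with Ogdh, Idh3b with Fh1, Idh3g with Ogdh and Ogdh with Mdh2. The fold change of Suclg2 was -0.0179 with limma-voom, and that of Myh2 was 0.00539 with library number as covariate. For Idh2 and Idh3a, r was 0.00515 with libraries centred on their median and 0.554 after the slow fibre score was regressed out. The causes of these shifts were not tested.

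With each mouse left out in turn, fold changes ranged from -0.0916 to 0.103 for Idh2, -0.0517 to 0.023 for Idh3a, -0.0598 to 0.00468 for Idh3b, -0.026 to 0.027 for Idh3g, -0.00194 to 0.057 for Ogdh, -0.0227 to 0.023 for Suclg1 and -0.0418 to 0.0229 for Mdh2. They ranged from -0.0468 to 0.00522 for Dlst, -0.0446 to 0.0103 for Dld, -0.0178 to 0.0964 for Suclg2, -0.0258 to 0.0555 for Sdhc, -0.000539 to 0.139 for Acly and -0.0605 to 0.134 for Myh2. Fold changes of Cs and Fh1 kept their sign. Genes of the related lists with an unadjusted p under 0.05 numbered 1 (without Thymol 20, Thymol 24, Thymol 34 or Control 35) to 6 (without Control 14), with 5 without Thymol 30. The Spearman count of pairs ranged from 7 (without Thymol 21) to 20, the Pearson count from 18 (without Control 19) to 28, and members related to the slow fibre score from 1 to 2 (without Thymol 6 or Control 23). For Idh2, r ranged from -0.143 to 0.0501 with Idh3a, from -0.0402 to 0.205 with Suclg1 and from 0.812 to 0.92 with the slow fibre score. Depth did not limit the members, whose counting error was below the spread between mice.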
